A study of Mus musculus with 8 samples.

Results

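The heat shock proteins and their cochaperones were followed as a set of 42 genes, chosen by name: each gene whose symbol in the deposited table equals an entry of a list of Hsp90, Hsp70, small heat shock, J protein, mitochondrial chaperone, heat shock factor and cochaperone genes. They are 42 of the 47643 genes in the table, and the rule is a list of names with no threshold on a measured value, written with earlier results of these data known. The set is mostly cytosolic, but Hspd1, Hspe1, Hspa9, Trap1 and Dnaja3 encode mitochondrial chaperones, and Hsf1 and Hsf2 are transcription factors. Chaperones of the endoplasmic reticulum were not in it and were used for comparison.

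RNA was sequenced from the quadriceps, a thigh muscle, of 8 mice, 1 library per mouse, of the strain C57BL/6 by the labels and C57BL/6J by the study's methods: 4 were Nup210+/+ and 4 were Nup210-/-. Nup210 is a membrane-spanning subunit of the nuclear pore complex. In the knockout line, exon 2, flanked by loxP sites, was removed by an Hprt-Cre driver, so that the deletion is not limited to muscle. The muscle was neither injured nor heated as far as the labels and methods say, and the age and sex of these mice are not given in the sources used here. Values are TPM, the length-corrected share of a library that a gene's transcripts take, brought to the same total in each library, and the read depth behind them is unknown.

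Heat shock proteins bind unfolded or partly folded proteins. Hsp70 works in a cycle with J proteins, which bring it clients and trigger its ATPase, and hands some clients on to Hsp90 through cochaperones such as Stip1. Several of the genes have a constitutive form and a form that Hsf1 switches on in heat or other protein-damaging stress, by binding to heat shock elements, which are inverted repeats of the block nGAAn in promoters. Muscle also holds abundant small heat shock proteins that guard desmin, titin and actin filaments, and the dedicated myosin chaperones Unc45b and Smyd1.

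Promoter sequence is shown for 4 heat-inducible genes that carry a complete pair of opposed blocks in a stretch outside every annotated exon. All 4 are from the RefSeq promoter table on GRCm38.p6, are written 5′ to 3′ on the strand of the gene, and are the 150 bases that precede a transcription start. Capitals mark the blocks of a motif searched as GAANNTTC or TTCNNGAA.
Hspa1a, chr17:34972157-34972306, minus strand: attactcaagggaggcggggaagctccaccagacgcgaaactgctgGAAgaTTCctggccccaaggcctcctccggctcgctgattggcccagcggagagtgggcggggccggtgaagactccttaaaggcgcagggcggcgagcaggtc
Hspa1b, chr17:34959239-34959388, minus strand: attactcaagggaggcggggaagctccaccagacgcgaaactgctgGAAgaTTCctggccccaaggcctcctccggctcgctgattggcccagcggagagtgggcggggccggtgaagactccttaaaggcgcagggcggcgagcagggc
Dnajb4, chr3:152193846-152193995, minus strand, before a start inside the gene, in an intron of its longer transcript: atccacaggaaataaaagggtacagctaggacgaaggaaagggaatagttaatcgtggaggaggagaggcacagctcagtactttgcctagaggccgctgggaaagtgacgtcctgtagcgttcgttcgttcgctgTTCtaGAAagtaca
Hspb1, chr5:135887769-135887918, plus strand: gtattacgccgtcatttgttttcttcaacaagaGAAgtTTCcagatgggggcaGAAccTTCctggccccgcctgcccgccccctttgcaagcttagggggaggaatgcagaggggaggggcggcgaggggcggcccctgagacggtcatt
The Hspa1a and Hspa1b windows, from 250 bases before to 50 after the start, had the same base at 296 of 300 positions. In both, the pair of blocks began 104 bases before the start, against 14 bases in Dnajb4 and 117 and 97 bases in Hspb1. A pair of opposed blocks was found in 39.6% of 48 windows of 35 members and in 15.1% of 32851 windows in the whole table, which hold 300 bases each. A run of 3 alternating blocks was found in 14.6% of the member windows and 0.603% of all windows, in the genes Chordc1, Dnajb6, Hspd1, Hspe1 and Hsph1. Some member runs were counted more than once, because the windows of Dnajb6 overlap, as do those of Hsph1. A window of Hspd1 and that of Hspe1 cover nearly the same bases. Both shares are descriptions of letters in a window and were not tested. No window was used here for Hspa8, Hspa9, Hsp90aa1, Hspb2, Hsf1, Cryab or Hsp90ab1.

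All 42 genes were expressed, at a mean over the 8 libraries that ran from 2.02 TPM for Hspa2 to 1411 TPM for Hspa8, the constitutive cytosolic Hsp70. The next most abundant were Cryab (810 TPM) and Hspb6 (804 TPM), small heat shock proteins of muscle, and Hsp90ab1 (598 TPM), the constitutive Hsp90. The stress-inducible Hsp70 genes Hspa1a and Hspa1b were at 8.12 and 5.77 TPM. Together the 42 genes made up 0.705 to 0.741% of the TPM of the Nup210+/+ libraries and 0.622 to 0.686% of those of the Nup210-/- libraries. These shares are from TPM as deposited, before scaling between libraries. On those values the median log2 fold change, Nup210-/- minus Nup210+/+, was −0.12 for the members and −0.08 for all tested genes.

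**Figure D1:**
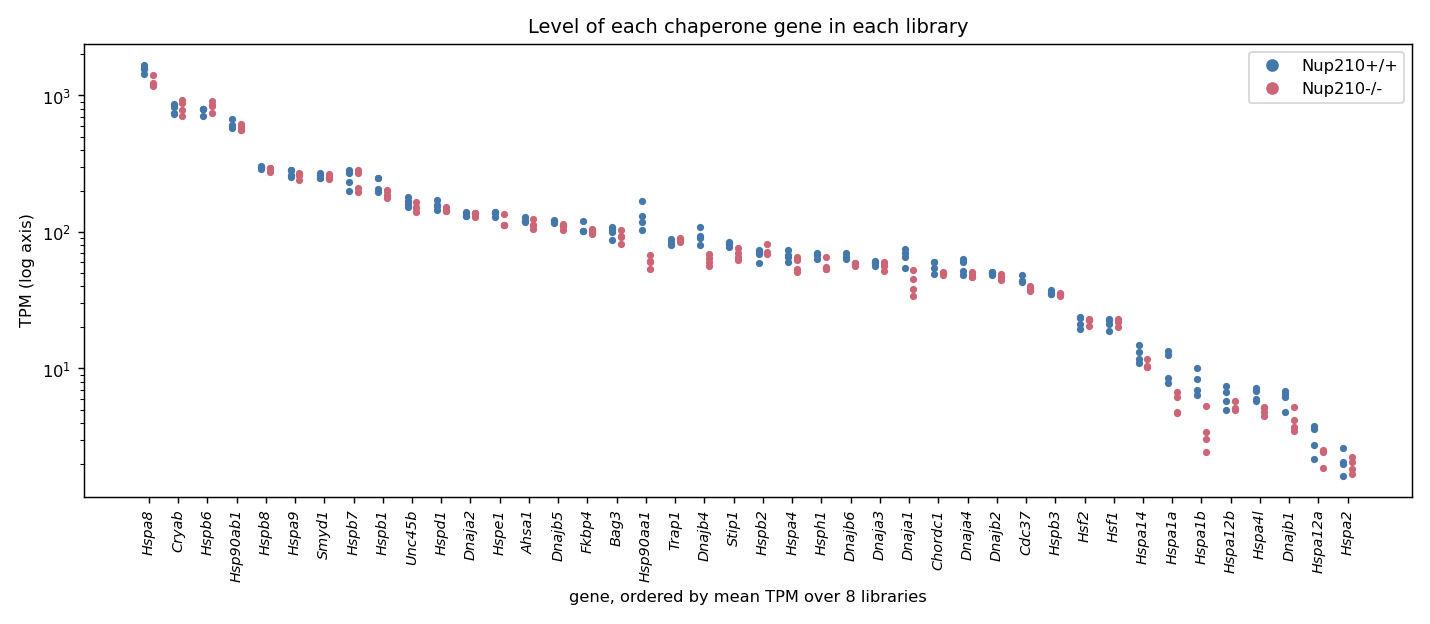
TPM (vertical log axis) of the 42 genes in each library, with the genes ordered along the horizontal axis by their mean over the 8 libraries, from Hspa8 (1411 TPM) to Hspa2 (2.02 TPM). Blue points are Nup210+/+ and red points Nup210-/- libraries, and the genotypes lie furthest apart for Hsp90aa1, Hspa1a and Hspa1b and overlap for most other genes.

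One gene differed between the genotypes at an adjusted p of 0.05, Hsp90aa1, the stress-inducible Hsp90, which was lower in Nup210-/- muscle. Of the members, 9 were lower at an unadjusted p of 0.05, among them both inducible Hsp70 genes and 3 J proteins, and 2, Hspb6 and Trap1, were higher. The small heat shock proteins, the myosin chaperones and Bag3 were not among those that were lower. For each test, the libraries were brought to a common scale by median-of-ratios factors (0.936 to 1.12), and log2(scaled TPM + 1) was compared with limma over 14229 genes, with Benjamini-Hochberg adjustment over all of them. Fold changes are Nup210-/- minus Nup210+/+ on that scale, where the added 1 makes the change of a weakly expressed gene look smaller.

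Read against all genes, 1 of 42 members was lower and 0 were higher at an adjusted p of 0.05, where 0.0633 and 0.0492% of all tested genes were. At an unadjusted p of 0.05, 9 were lower and 2 higher, that is 21.4 and 4.76% of the members, beside a background of 7.18 and 7.0%. The scaled values of the genotypes did not overlap for 5 members that were lower and 1 that was higher, 11.9 and 2.38%, beside 4.6 and 4.78% of all genes. The median log2 fold change of the members was −0.02 and that of all tested genes −0.01, with 25 estimates below 0 and 17 above.

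**Figure D2:**
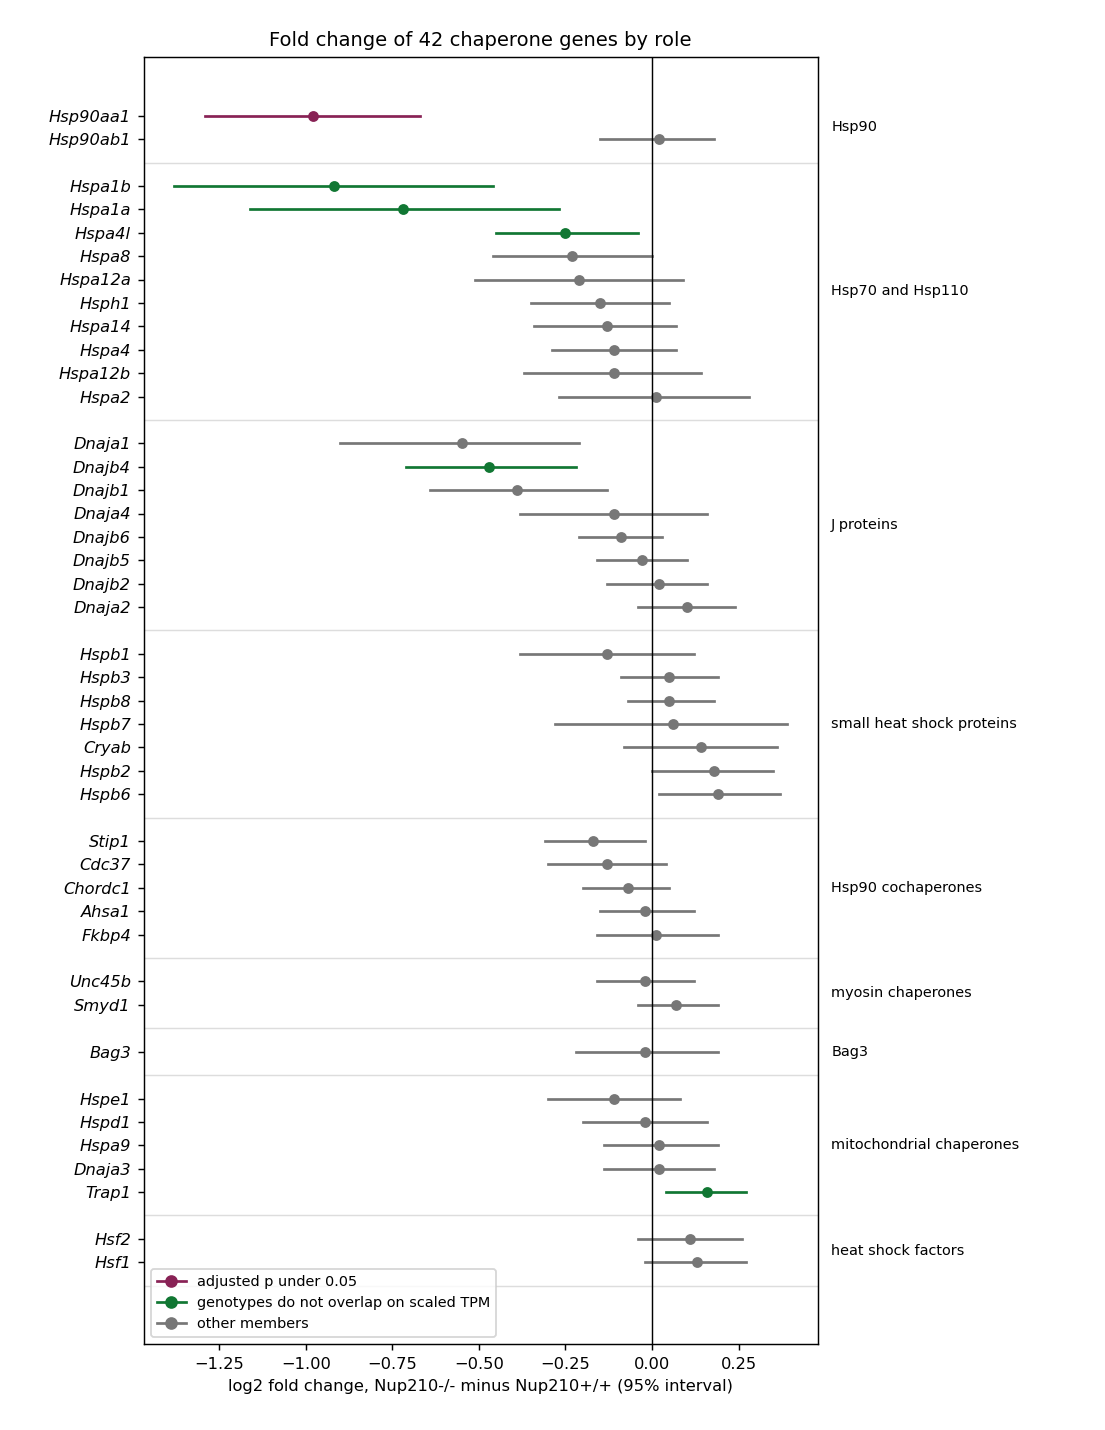
Log2 fold change, Nup210-/- minus Nup210+/+ (horizontal axis), of the 42 genes in blocks by role, with bars for the 95% interval of the limma fit. Hsp90aa1 (−0.98, purple) was the gene past an adjusted p of 0.05, the green genes are the other 5 whose genotypes did not overlap, and most grey intervals cross 0.

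Before the results by gene, 3 features of the libraries bear on them. Nup210 mRNA was not lower in the knockout (8.81 to 11.9 TPM, against 5.71 to 10.1 TPM in Nup210+/+, log2 fold change 0.44, adjusted p = 0.231 in limma), and a TPM over the whole gene cannot show whether exon 2 is missing, so it does not check the deletion and the directions below rest on the labels. Nup210+/+ replicate 2 stood apart, with a summed 382 TPM of 6 granulocyte precursor markers against 0.31 to 2.12 TPM in the other libraries, and 131 TPM of 10 proliferation markers against 28.0 to 34.8 TPM. All 9 leukocyte markers tested and all 8 fibroblast markers had estimates lower in Nup210-/-. Summed levels were 228 to 252 against 259 to 510 TPM for 11 leukocyte markers, which include some not tested. Those of the fibroblast markers were 705 to 833 against 877 to 1405 TPM. All 12 skeletal muscle markers had estimates higher, with sums of 111278 to 119935 against 104144 to 112536 TPM. The part of these shifts in the results was not tested, and in whole muscle fewer cells of a type and less RNA per cell cannot be told apart.

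Hsp90aa1 (ENSMUSG00000021270, chr12:110690605-110702728, minus strand, GRCm38) encodes the cytosolic Hsp90 that heat and other stress induce. It was at 53.2, 61.6, 60.5 and 67.5 TPM in Nup210-/- replicates 1 to 4 and at 132, 169, 118 and 104 TPM in Nup210+/+ replicates 1 to 4. Every knockout library was below every wild-type one, and the highest wild-type value was in the replicate that stood apart. The means were 60.7 ± 5.89 and 131 ± 28.0 TPM (SD, n = 4 each), a log2 fold change of −0.98 (95% interval −1.29 to −0.67, adjusted p = 0.0497 in limma), and a two-sided exact permutation test gave p = 0.0286, the smallest that 4 against 4 allows. Without Nup210+/+ replicate 2 the log2 fold change was −0.85 and the adjusted p in limma 0.0552, and without each of the 8 libraries in turn the adjusted p was 0.0551 to 0.171. The gene passed the adjusted threshold in 8 of 21 alternative analyses, so its call lies at the edge of that threshold. It was lower without overlap in all of them, but many could not change this. The pseudocounts, gene filters and fit options keep the same scaled values, and leaving out a library could add overlap only through the scaling factors. The direction also held with TPM as deposited, upper-quartile scaling and rescaling. It shares 42.8% of its 75-base stretches, the read length, with pseudogenes, of which the highest, Gm12346, was at 0.16 to 2.15 TPM. Summed with them, it had the same log2 fold change of −0.98 (adjusted p = 0.0495 in limma).

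Hsp90ab1, the constitutive paralog, was at 556, 587, 622 and 561 TPM in Nup210-/- and 609, 670, 581 and 595 TPM in Nup210+/+. The ranges overlapped, and the log2 fold change of 0.02 (95% interval −0.15 to 0.18, adjusted p = 0.938 in limma) changes sign with the scaling, to −0.08 with TPM as deposited. The ratio of Hsp90aa1 to Hsp90ab1 within a library needs no scaling between libraries. It was 0.0956, 0.105, 0.0973 and 0.12 in Nup210-/- and 0.217, 0.252, 0.203 and 0.174 in Nup210+/+, with no overlap. The difference was −1.01 in log2 (two-sided exact permutation p = 0.0286, adjusted over 2 ratios 0.0571).

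The inducible Hsp70 proteins are encoded by Hspa1a (chr17:34969190-34972156) and Hspa1b (chr17:34956436-34959238), a tandem pair on the minus strand. Hspa1a was at 4.68, 6.13, 6.75 and 4.83 TPM in Nup210-/- and 12.7, 7.81, 8.58 and 13.5 TPM in Nup210+/+. Hspa1b was at 3.03, 5.33, 3.42 and 2.45 TPM in Nup210-/- and 10.2, 6.4, 6.93 and 8.43 TPM in Nup210+/+. For both genes all 4 knockout libraries were below all 4 wild-type ones, and Nup210+/+ replicates 1 and 4 were the highest. The log2 fold changes were −0.72 (SE 0.198, adjusted p = 0.182 in limma) and −0.92 (SE 0.202, adjusted p = 0.121 in limma), neither past the threshold.

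These 2 genes share 54.2 and 55.8% of their read-length stretches with other genes, mainly each other, so the split of reads between them is an estimate. Both also share stretches with Hspa1l, at 16.5 to 22.8 TPM, and the sum of Hspa1a and Hspa1b does not remove the split of reads with that gene. The sum of Hspa1a and Hspa1b was 7.71, 11.5, 10.2 and 7.28 TPM in Nup210-/- and 22.8, 14.2, 15.5 and 22.0 TPM in Nup210+/+, again without overlap (9.16 ± 2.0 against 18.6 ± 4.38 TPM, SD, n = 4 each). On the scaled log2 scale the sum differed by −0.86 (two-sided exact permutation p = 0.0286).

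Hspa8, the constitutive Hsp70 (chr9:40800984-40810087, plus strand), was at 1237, 1174, 1417 and 1188 TPM in Nup210-/- and 1590, 1562, 1432 and 1684 TPM in Nup210+/+. The TPM did not overlap, but the scaled values did, because Nup210+/+ replicate 3 has the largest scaling factor (1.12). The log2 fold change was −0.23 (SE 0.101, adjusted p = 0.352 in limma). It shares 32.8% of its stretches, chiefly with pseudogenes such as Gm8355, listed at 118 to 228 TPM, and the sum with them had a log2 fold change of −0.24. The ratio of the summed Hspa1a and Hspa1b to Hspa8 was 0.00613 to 0.00976 in Nup210-/- and 0.0091 to 0.0143 in Nup210+/+. These ranges met at the highest knockout library, replicate 2, and the log2 difference was −0.7 (two-sided exact permutation p = 0.0571, adjusted over 2 ratios 0.0571).

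**Figure D3:**
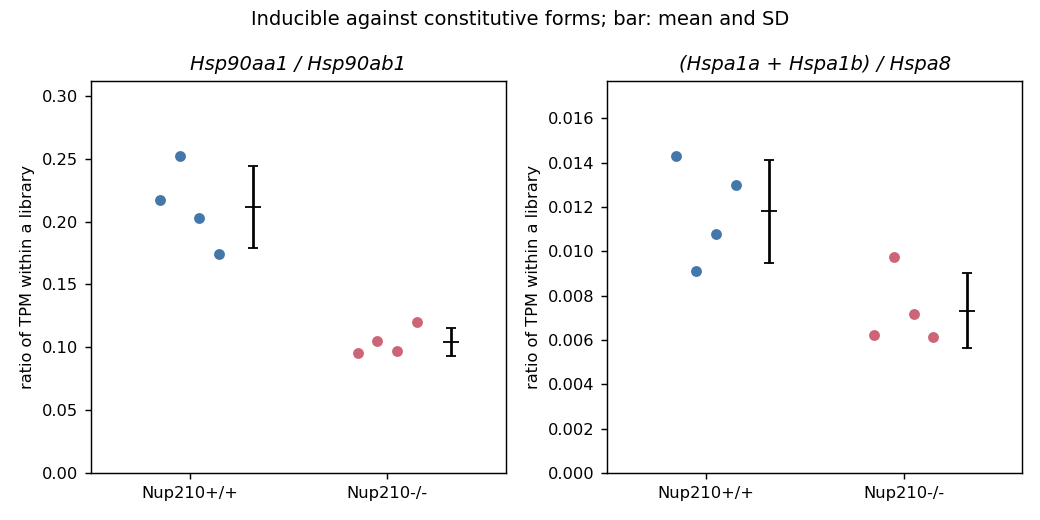
TPM of the stress-inducible over the constitutive form within each library (vertical axis, from 0), for Hsp90 on the left and Hsp70 on the right. Points are libraries, with replicates 1 to 4 from the left, and bars give the mean and SD of 4. The Hsp90 ratio does not overlap between genotypes (0.0956 to 0.12 and 0.174 to 0.252), and the Hsp70 ratio overlaps at 1 knockout library.

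Of the 10 Hsp70 and Hsp110 genes, 9 had estimates below 0, with a median log2 fold change of −0.18. Of the 10, 4 were lower at an unadjusted p of 0.05, beside 7.18% of all tested genes. The fourth, beside Hspa1a, Hspa1b and Hspa8, was Hspa4l, an Hsp110-family gene, at 5.15, 5.22, 4.45 and 4.81 TPM in Nup210-/- and 6.78, 5.73, 7.17 and 6.0 TPM in Nup210+/+. Its genotypes did not overlap, and the log2 fold change was −0.25 (adjusted p = 0.269 in limma). Hsph1, the main inducible Hsp110 and a nucleotide exchange factor for Hsp70, was at 53.7 to 66.1 TPM in Nup210-/- and 63.8 to 69.7 TPM in Nup210+/+ (−0.15, adjusted p = 0.455 in limma). The exchange factor Hspa4 (−0.11), the divergent Hsp70 relatives Hspa12a (−0.21) and Hspa12b (−0.11), the ribosome-associated Hspa14 (−0.13) and the testis-rich Hspa2 (0.01) all overlapped between genotypes.

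Of the 8 J proteins, which stimulate the ATPase of Hsp70, 3 were lower at an unadjusted p of 0.05, beside 7.18% of all tested genes. None passed the adjusted threshold. Dnajb4, a J protein of class B expressed in muscle (chr3:152178511-152210302, minus strand), was at 64.3, 69.4, 56.5 and 60.5 TPM in Nup210-/- and 109, 79.7, 93.4 and 90.6 TPM in Nup210+/+. Every knockout library was below every wild-type one, with a log2 fold change of −0.47 (SE 0.109, adjusted p = 0.132 in limma). None of its stretches are shared with another gene.

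Dnaja1, a J protein of class A that partners Hspa8 (chr4:40722150-40737149, plus strand), was at 45.2, 37.9, 52.8 and 33.8 TPM in Nup210-/- and 74.6, 70.6, 54.7 and 65.5 TPM in Nup210+/+. Nup210-/- replicate 3 and Nup210+/+ replicate 3 nearly met in TPM and crossed after scaling, and the log2 fold change was −0.55 (SE 0.153, adjusted p = 0.183 in limma). It shares 10.4% of its stretches, mainly with the pseudogene Gm15542 (7.39 to 19.8 TPM). The sum of the gene with its pseudogenes had a log2 fold change of −0.56 and did not overlap between genotypes (adjusted p = 0.0863 in limma).

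Dnajb1, the inducible J protein that works with Hspa1a in disaggregation (chr8:83608193-83612653, plus strand), was at 3.71, 5.21, 4.16 and 3.46 TPM in Nup210-/- and 6.21, 6.47, 6.79 and 4.81 TPM in Nup210+/+. The lowest wild-type library, replicate 4, lay below the highest knockout library, replicate 2, and the log2 fold change was −0.39 (SE 0.113, adjusted p = 0.197 in limma). The other 5 were close to 0: Dnaja4 (−0.11), Dnajb6 (−0.09), which suppresses aggregation and is a limb-girdle muscular dystrophy gene, Dnajb5 (−0.03), Dnajb2 (0.02) and Dnaja2 (0.1), with adjusted p of at least 0.483 in limma.

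**Figure D4:**
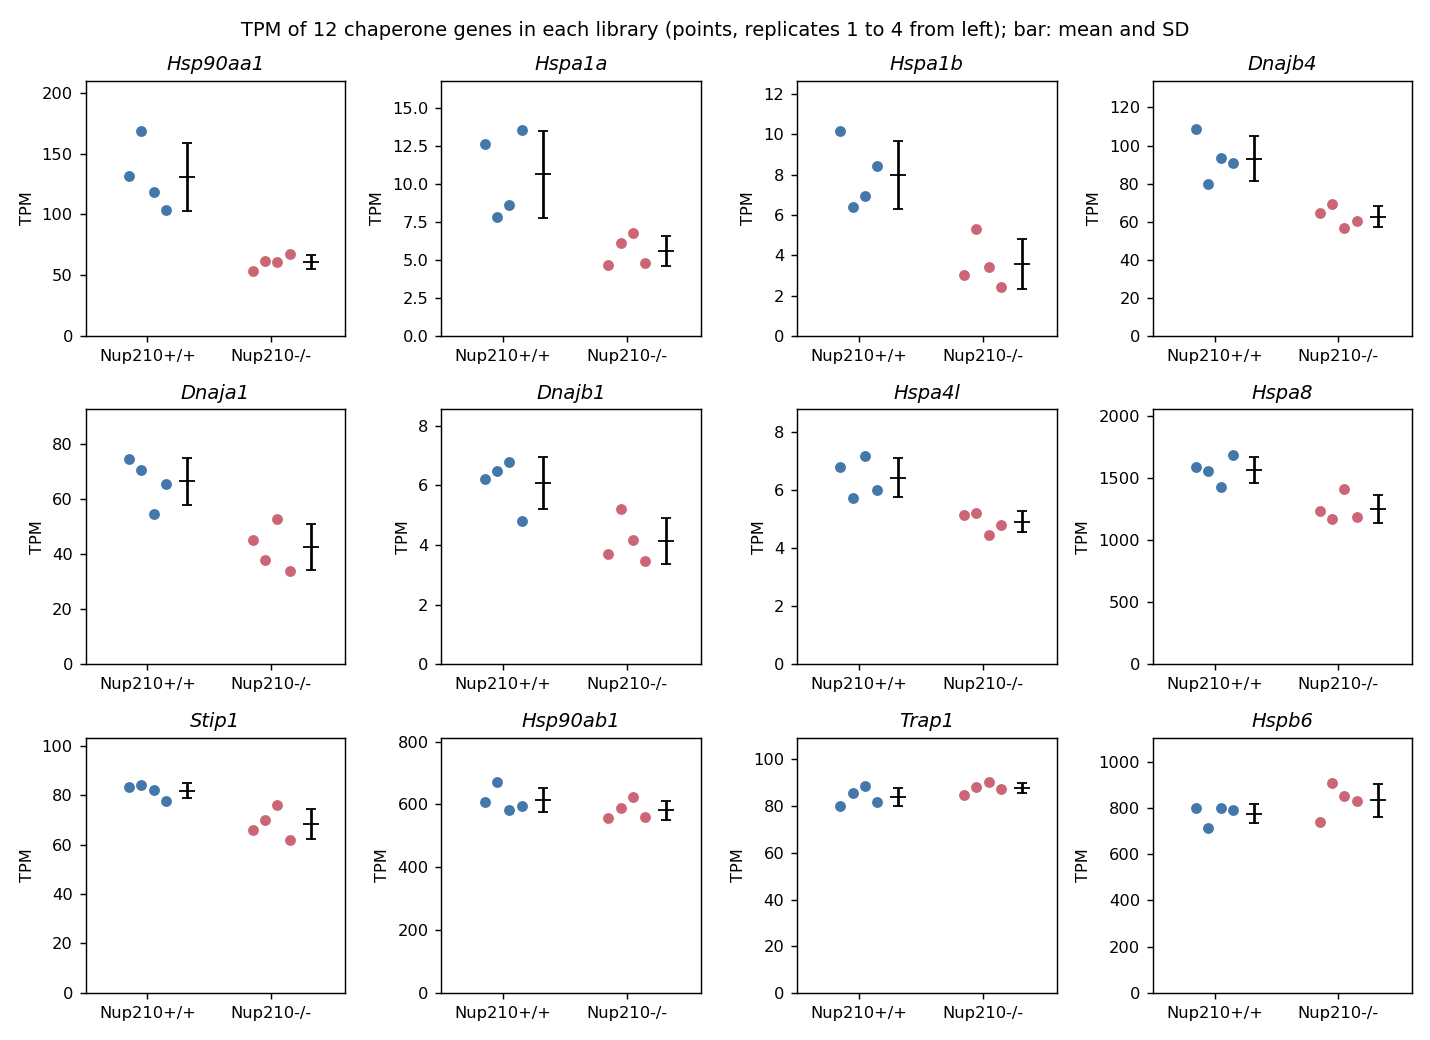
TPM (vertical axes, from 0) of 12 genes in Nup210+/+ (blue) and Nup210-/- (red) libraries, with replicates 1 to 4 from the left within each genotype and a bar for the mean and SD of 4. Hsp90aa1, Hspa1a, Hspa1b, Dnajb4 and Hspa4l separate by genotype, as do Dnaja1, Hspa8 and Stip1 before scaling, Hsp90ab1, Trap1 and Hspb6 overlap, and Hspa1a and Hspa1b are highest in Nup210+/+ replicates 1 and 4.

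The small heat shock proteins, which hold unfolded clients without ATP, had estimates close to 0. Of 7 genes, 6 had estimates above 0 and 1 below, with a median log2 fold change of 0.06, and none passed the adjusted threshold. Hspb6, abundant in muscle, was at 740, 909, 851 and 831 TPM in Nup210-/- and 801, 712, 800 and 790 TPM in Nup210+/+. The lowest knockout library, replicate 1, lay below 3 wild-type ones, and the log2 fold change was 0.19 (adjusted p = 0.312 in limma). Cryab, the lens and muscle crystallin that protects desmin, was at 709 to 927 TPM in Nup210-/- and 738 to 873 TPM in Nup210+/+ (0.14, adjusted p = 0.526 in limma). It lies head to head with Hspb2 on chromosome 9 and their exons overlap on opposite strands, and Hspb2 was at 68.5 to 81.0 against 59.7 to 74.4 TPM (0.18, adjusted p = 0.357 in limma). Hspb7, a filamin C partner, had the largest coefficient of variation of the small heat shock proteins (15.4% in Nup210+/+ and 18.5% in Nup210-/-), from 196 to 285 TPM in Nup210-/- and 198 to 283 TPM in Nup210+/+. Hspb8, the partner of Bag3, and Hspb3, a muscle-restricted member, both had a log2 fold change of 0.05. The single estimate below 0 was that of Hspb1, the heat-inducible member whose promoter is shown above, at 177, 200, 201 and 187 TPM in Nup210-/- and 247, 196, 207 and 247 TPM in Nup210+/+ (−0.13, adjusted p = 0.618 in limma). Its values overlapped, and Nup210+/+ replicates 1 and 4 were again the highest.

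Among the Hsp90 cochaperones, Stip1, the adaptor that joins Hsp70 to Hsp90, was at 65.9, 69.9, 75.9 and 61.9 TPM in Nup210-/- and 83.5, 84.3, 81.9 and 77.6 TPM in Nup210+/+. The TPM did not overlap and the scaled values did, and the log2 fold change was −0.17 (adjusted p = 0.282 in limma). Cdc37, which loads kinases onto Hsp90, was at 37.1 to 39.9 against 43.3 to 48.6 TPM, with a log2 fold change of −0.13 (adjusted p = 0.448 in limma). Its scaled values overlapped too. The cochaperone Chordc1 (−0.07), the ATPase activator Ahsa1 (−0.02) and the immunophilin Fkbp4 (0.01) overlapped between genotypes on the scaled values.

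The chaperones dedicated to myosin and to the Z-disc differed little between genotypes. Unc45b, which folds the myosin head, was at 153, 151, 166 and 139 TPM in Nup210-/- and 168, 151, 181 and 161 TPM in Nup210+/+, with a log2 fold change of −0.02 (95% interval −0.16 to 0.12, adjusted p = 0.908 in limma). Smyd1, a methyltransferase that helps assemble myosin, was at 255, 250, 268 and 244 TPM in Nup210-/- and 261, 249, 273 and 249 TPM in Nup210+/+, with 0.07 (95% interval −0.04 to 0.19, adjusted p = 0.535 in limma). Bag3, the cochaperone of Hsp70 and Hspb8 in the removal of damaged filamin, was at 81.2, 103, 93.5 and 91.2 TPM in Nup210-/- and 109, 87.5, 103 and 99.7 TPM in Nup210+/+, with −0.02 (95% interval −0.22 to 0.19, adjusted p = 0.946 in limma). The genotypes overlapped for all 3, and the sign of each turned in some alternative. These intervals do not include a decrease of the size estimated for Hsp90aa1, Hspa1a or Hspa1b.

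Of the 5 mitochondrial chaperones, Trap1, the mitochondrial Hsp90, was the one member higher without overlap on scaled values. It was at 84.9, 88.3, 90.5 and 87.3 TPM in Nup210-/- and 80.1, 85.7, 88.5 and 81.9 TPM in Nup210+/+, which overlap before scaling. The log2 fold change was 0.16 (SE 0.0517, adjusted p = 0.23 in limma). The chaperonin pair Hspd1 (−0.02) and Hspe1 (−0.11), the matrix Hsp70 Hspa9 (0.02) and its J protein Dnaja3 (0.02) overlapped, and Hspd1 and Hspe1 share a bidirectional promoter in which blocks of the heat shock element were found.

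The transcription factors of the response were measured at similar mRNA levels. Hsf1, the main activator of the heat shock response, was at 20.2, 23.2, 22.5 and 21.9 TPM in Nup210-/- and 21.1, 23.0, 22.8 and 18.8 TPM in Nup210+/+ (log2 fold change 0.13, adjusted p = 0.395 in limma). Hsf2, a relative that binds the same element, was at 22.8, 23.2, 22.8 and 20.3 TPM in Nup210-/- and 23.9, 21.3, 23.4 and 19.5 TPM in Nup210+/+ (0.11, adjusted p = 0.478 in limma). The activity of Hsf1 is set mostly after translation, which these data do not measure. The genotypes overlapped for both genes, with Nup210+/+ replicate 4 lowest.

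The members were also divided by textbook inducibility. Of 16 genes listed as heat-inducible (Hspa1a, Hspa1b, Hsp90aa1, Hsph1, Hspa8, Dnajb1, Dnaja1, Dnajb4, Hspb1, Cryab, Bag3, Chordc1, Ahsa1, Stip1, Hspd1 and Hspe1), 15 had estimates below 0, Cryab being the exception, and the median log2 fold change was −0.16. Of these, 8 were lower at an unadjusted p of 0.05 and 4 did not overlap. Of the other 26 members 1 was lower and 2 were higher at that p, with a median of 0.02. Over all tested genes 7.18% were lower and 7.0% higher at that p, and 4.6% were lower without overlap. The list was written with results of these data known, and Hspa8, Hspd1 and others in it are also expressed without stress, so the counts are a description. Without Nup210+/+ replicate 2, 15 of the 16 were below 0, 6 lower at that p and 4 without overlap, with a median of −0.17. Of all genes 6.74% were then lower at that p and 6.56% lower without overlap. Without Nup210+/+ replicate 4 the counts of the 16 were 12, 6 and 5, with a median of −0.13, beside 9.51 and 8.91% of all genes. The other 26 members moved with the scaling, from 10 estimates below 0 to 16 with upper-quartile scaling and to 20 with TPM as deposited. As deposited, 5 were lower and 0 higher at an unadjusted p of 0.05 in limma and the median was −0.08. The heat-inducible genes then had 15 of 16 below 0, 12 lower and a median of −0.25. Of all genes 11.8% were lower at that p as deposited, with a median of −0.08. A difference between the 2 lists was not tested.

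The spread among wild-type mice was part of the pattern. The mean deviation of the 16 genes from their 8-library mean was 0.25, 0.11, −0.01 and 0.26 in Nup210+/+ replicates 1 to 4 and −0.2, −0.1, −0.11 and −0.18 in Nup210-/- replicates 1 to 4, in log2. On this mean every knockout library was below every wild-type one, for a list written with results of these data known. Nup210+/+ replicate 3 lay closer to the knockout libraries than to replicates 1 and 4. Over all 42 members the genotypes overlapped. The mean deviation was then 0.11, 0.03, −0.04 and 0.13 in Nup210+/+ replicates 1 to 4 and −0.09, −0.03, −0.06 and −0.05 in Nup210-/- replicates 1 to 4. Nup210+/+ replicate 4 held the highest scaled value of 8 of the 16 genes, and of 16 of all 42. It had the lowest level of leukocyte markers of the 4 wild-type libraries (259 TPM), and Nup210+/+ replicate 3 had the highest (510 TPM), and the part of these markers in the heat-inducible values was not tested. The deviations of single genes are shown in the map of genes by library.

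**Figure D5:**
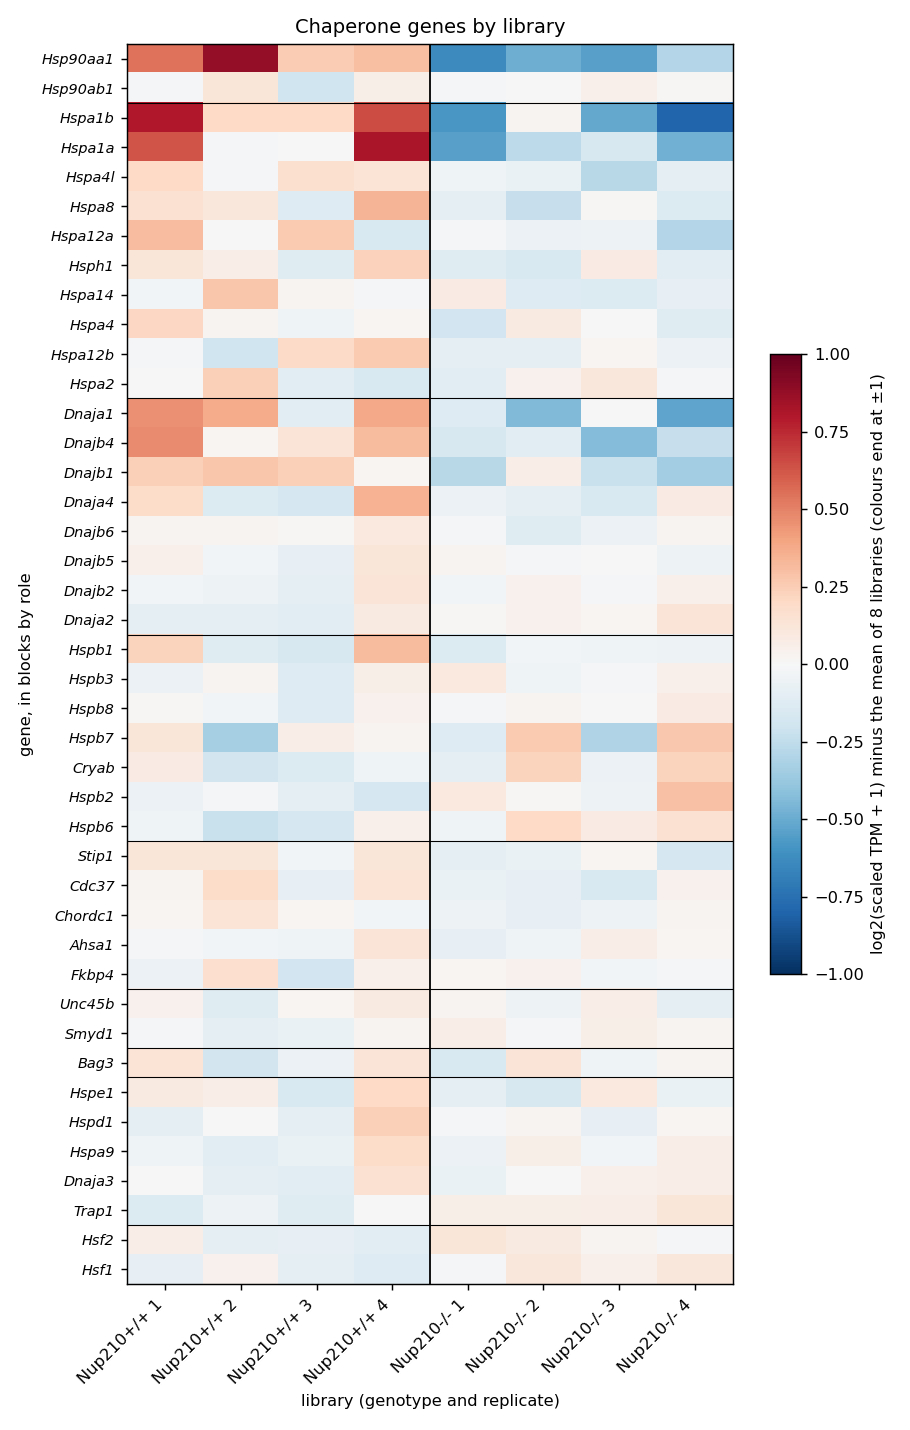
Log2(scaled TPM + 1) minus the mean of 8 libraries for each of 42 genes (rows, in blocks by role) in each library (columns), from blue (below) to red (above). Hsp90aa1 and the upper rows of the Hsp70 and J protein blocks are mostly red in Nup210+/+ and blue in Nup210-/-, with exceptions near 0 (Hspa1a in Nup210+/+ replicates 2 and 3, Dnaja1 in replicate 3 of both genotypes, Hspa1b and Dnajb1 in Nup210-/- replicate 2), Hspa1a and Hspa1b are deepest in Nup210+/+ replicates 1 and 4, and the small heat shock protein and mitochondrial blocks show no such split, apart from Trap1, which is redder in Nup210-/-.

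The rest of the chaperone network was near the median of all genes. It comprised 59 tested genes of other cochaperones, the cytosolic chaperonin, prefoldin, Bag3 partners, mitochondrial proteases and import, and heat shock factor regulators and relatives. Of these, 24 had estimates below 0 and 35 above, with a median log2 fold change of 0.02. At an unadjusted p of 0.05, 5 were lower and 6 higher, beside 7.18 and 7.0% of all tested genes. In the chaperonin CCT and prefoldin, which fold actin and tubulin, 10 of 14 estimates were below 0 and 3 were lower at that p, among them Cct3 (67.2 ± 3.86 against 87.6 ± 4.15 TPM, SD, n = 4 each, log2 fold change −0.28, adjusted p = 0.154 in limma). The largest estimate was that of Ddi2, a protease that activates the proteasome gene regulator Nfe2l1, which averaged 20.7 ± 0.794 TPM in the knockout, against 14.1 ± 2.78 TPM (0.63, adjusted p = 0.0528 in limma), and the lowest was that of Pam16, a subunit of the mitochondrial import motor (−0.42, adjusted p = 0.368 in limma). The 31 proteasome subunits had a median of 0.04 and ran from Psmd14 (−0.16) to Psmd8 (0.19). Of them 0 were lower and 3 higher at an unadjusted p of 0.05 in limma, beside the same 7.18 and 7.0% of all tested genes.

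Chaperones of the endoplasmic reticulum had mostly lower estimates in Nup210-/- muscle. Of 18, 16 had estimates below 0, and 13 were lower at an unadjusted p of 0.05, beside 7.18% of all tested genes. Of the 18, 11 were lower without overlap, beside 4.6% of all tested genes. The median log2 fold change of the 18 was −0.34. Their summed level was highest, 1347 TPM, in Nup210+/+ replicate 2, the library that stood apart, while the remaining Nup210+/+ libraries held 987 to 1130 TPM and the Nup210-/- libraries 775 to 864 TPM. Without it the median was −0.22, with 16 estimates below 0, 11 lower at that p and 11 without overlap, beside 6.74 and 6.56% of all genes. Hsp90b1, the Hsp90 of that compartment, averaged 89.0 ± 1.41 TPM in the knockout, against 134 ± 13.9 TPM (−0.49, adjusted p = 0.054 in limma), and Hspa5, its Hsp70, at 131 ± 6.44 and 176 ± 6.16 TPM (−0.33, adjusted p = 0.0552 in limma). The estimates ran from Pdia3, a disulfide isomerase (−0.74), to Dnajb9, a J protein of the unfolded protein response (0.05). None of the 18 passed the adjusted threshold, and the difference between the 2 compartments was not tested. Fibroblasts, which secrete collagen through this compartment, and leukocytes also had markers with lower estimates, as given above, and their part in these values was not tested.

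Signs of handling were examined because immediate early and cold-inducible genes can move with the time between death and freezing. Of 10 immediate early genes tested, 5 had estimates below 0 and 5 above. At an unadjusted p of 0.05 in limma, 2 of them, Atf3 and Myc, were lower and 0 higher, beside 7.18 and 7.0% of all tested genes. Atf3 averaged 3.2 ± 1.41 TPM in the knockout, against 10.5 ± 4.28 TPM (SD, n = 4 each, −1.36, adjusted p = 0.117 in limma) without overlap. Myc averaged 4.01 ± 0.817 against 8.73 ± 4.49 TPM (−0.76, adjusted p = 0.302 in limma) with overlap, and Fos (−0.39) and Egr1 (0.6) overlapped too. The cold-inducible genes Cirbp (0.19) and Rbm3 (−0.14) overlapped. The labels give no time or order of dissection, so handling and genotype cannot be told apart, and the part of either in the lower heat-inducible genes was not tested.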

How the data were processed

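RNA of quadriceps from 4 Nup210+/+ and 4 Nup210-/- mice was measured, grouped by the genotype in the labels. Per the labels and methods, the authors isolated poly(A) RNA, prepared strand-specific libraries, read them from one end (75 bases), trimmed with cutadapt 2.3, aligned to mm10 with STAR 2.7.0d and estimated expression with RSEM 1.3.1 on Ensembl annotation. The authors deposited TPM per gene and library, without pooling. TPM are relative to the library, so a gene that takes more lowers the others. Their strand setting in RSEM is not given in the sources used here, and the estimated counts that they tested with DESeq2 were not used here, so limma on TPM took the place of that test.

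TPM were scaled by the median of ratios over 15225 genes above 0 in all libraries, a pseudocount of 1 was added, and limma 3.58.1 was run on the 14229 genes whose TPM averaged 0.5 or more (lmFit, eBayes with trend, R 4.3.3), with genotype as the one term, at a Benjamini-Hochberg adjusted p of 0.05. Exact permutation tests used all 70 labelings. The members and lists were chosen with earlier results of these data known. The fit was tested on simulated data with independent normal noise. Those data held no outlying library and no shift in cell types, so the test does not cover these. Genes named are the members, and from other lists those with the highest and lowest estimate. Hspa5, Hsp90b1, Cct3, Fos and Myc were chosen after their values were seen. Coordinates and shared 75-base stretches are from GENCODE M21 on GRCm38, and promoters from RefSeq. Depth is unknown, so precision rests on the spread between 4 mice. Replicate numbers did not pair the libraries.

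Alternatives tried were a pseudocount of 0.1 or 0.5, every gene above 0 kept or a minimum mean of 0.1 or 1, no scaling, scaling by the upper quartile, rescaling without mitochondrial and the top 20 genes, eBayes without trend or robust, library weights, a replicate block, each library left out and, added after seeing the data, sums with pseudogenes. Python 3.11.15 with matplotlib 3.10.9 drew the figures.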

Additional observations from a re-analysis of the deposited data

Results flagged for a closer look

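In 9 of 88 groups of 4 libraries, 1 library lay far from the other 3 by Dixon's test, which compares the gap to the nearest library with the whole range of the group, where chance gives about 4.4. In Nup210+/+ these were Dnajb1 in replicate 4 (gap 0.834 of the range, low), Stip1 in replicate 3 (0.987, low), Ahsa1 in replicate 4 (0.889, high) and Dnaja2 in replicate 4 (0.934, high). Also in Nup210+/+ were Hspa14 in replicate 2 (0.845, high) and Hsf2 in replicate 1 (0.872, high). In Nup210-/- they were Hspa12a in replicate 4 (0.855, low), Hsph1 in replicate 3 (0.832, high) and Trap1 in replicate 4 (0.837, high). None of these is Hsp90aa1, Hspa1a, Hspa1b or Dnajb4.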

How the results depend on the processing

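Hsp90aa1 was lower in every alternative, by a log2 fold change of −1.08 to −0.85 (adjusted p 0.0187 to 0.232). Members lower at an adjusted p of 0.05 were 0 with every gene above 0, with a mean TPM of at least 0.1, with upper-quartile scaling, without the trend, under the replicate block and without each library in turn (0 to 0). The other genes without overlap (Hspa1a, Hspa1b, Dnajb4 and Hspa4l, lower) had the same direction without overlap in all alternatives. The pseudocounts, gene filters and fit options could not change this, because they keep the same scaled values. Leaving out a library could add overlap only through the scaling factors, and no pseudogene was summed with these genes. The alternatives that could change it more freely were TPM as deposited, upper-quartile scaling and rescaling. With TPM as deposited, 17 members were lower and 0 higher at an unadjusted p of 0.05, 11 were lower and 0 higher without overlap, and the median was −0.12; over all genes 11.8% were lower at that p, 6.87% lower without overlap, and the median was −0.08. Members higher at an unadjusted p were 4 with every gene above 0, 1 with upper-quartile scaling, rescaling, no trend, library weights or the block, and 1 to 3 without a library. Without overlap, 8 were lower after rescaling (4.84% of all genes) and 5 to 9 without a library (6.12 to 8.91% of all genes), and 1 to 3 were higher. The sign turned in some alternative for 16 of 42 members, among them Hsp90ab1 (−0.08 as deposited, −0.02 with upper-quartile scaling, −0.02 rescaled, −0.05 without Nup210+/+ replicate 3, range −0.05 to 0.06 without a library), Unc45b (0.01 without Nup210+/+ or Nup210-/- replicate 4, range −0.06 to 0.01), Smyd1 (−0.02 as deposited) and Bag3 (0.03 without either replicate 1, 0.02 without Nup210+/+ replicate 4, range −0.08 to 0.03). The other 12 (Hspa2, Dnajb2, Dnajb5, Dnajb6, Hspb3, Hspb7, Hspb8, Ahsa1, Fkbp4, Hspd1, Hspa9 and Dnaja3) lay between −0.18 and 0.17. In the paired test of the Hsp90 ratio, −1.01 had an exact p of 0.125, the smallest that 4 pairs allow, and the Hsp70 ratio without Nup210-/- replicate 2 was −0.84 (exact permutation p = 0.0286), with a range of −0.84 to −0.6 over the libraries left out. Same-numbered libraries deviated together with correlations of −0.033 to 0.086, so the numbers are names only. The cause of these moves was not tested, except that leaving out a library leaves fewer samples. Depth is unknown and 4 against 4 mice limit what could pass.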
